A study of Mus musculus with 28 samples.

Results

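P2rx4, P2rx7, P2ry6, Adora3 and Entpd1 are 5 genes of purine sensing and breakdown, measured here in microglia isolated from the hippocampus of 5xFAD mice and wild-type (WT) mice that were colonized, germ-free or treated with antibiotics. They were chosen by name as purine receptors and a purine-degrading enzyme beside the microglial receptor P2ry12, and each is 1 row among the 48587 genes of the deposited count table. All 5 passed the filter on low counts that left 15298 genes for testing. P2rx4 was higher in 5xFAD than in WT microglia in every housing condition and highest in germ-free 5xFAD mice. Adora3 was lower in 5xFAD microglia of colonized and germ-free mice. P2rx7 was lower in 5xFAD than in WT microglia of germ-free mice, and this difference departed from that in antibiotic-treated mice. In edgeR's test with TMM scaling, P2ry6 and Entpd1 passed the threshold in none of the 12 comparisons, whereas Entpd1 passed in some of them under other settings.

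Purines are signals as well as fuel. ATP set free by stressed or active cells opens P2X receptors, which are ion channels, and ATP, ADP and UDP act on P2Y receptors, which are coupled to G proteins. Enzymes on the cell surface break ATP down to adenosine, which acts on receptors of its own, so a cell that expresses receptors and enzymes both reads and removes the signal. In the brain, microglia use nucleotides to sense injured cells and to steer their processes, and the receptor P2ry12 is a marker of their resting state.

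The 28 libraries came from 28 male mice on a C57BL/6J background, 16 weeks old, each library made from the CD11b+CD45low hippocampal microglia of 1 mouse and read as single reads. By the study's methods, the sort also left out cells stained for Ly6C or Ly6G, surface markers of monocytes and neutrophils, and for further lineage markers. 5xFAD mice are a model of Alzheimer's disease with transgenes that the neuronal Thy-1 promoter drives, here heterozygous, and WT littermates served as controls. Mice were colonized under specific pathogen-free conditions (SPF), germ-free (GF), or given vancomycin, cefoxitin, gentamicin and metronidazole in the drinking water for 8 weeks (ABX). Among WT mice 5 were SPF, 4 GF and 5 ABX, and among 5xFAD mice 3 were SPF, 5 GF and 6 ABX, and p-values measure the spread between these mice. GF mice were bred in another facility than all others, and effects of the facility and of GF housing cannot be told apart.

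The labels hold conflicts that touch these results. Mouse FAD_GF_201 is 5xFAD by title and genotype but WT by its description. It was used as a GF 5xFAD mouse, and each call of a member that rests on that group is also given without it. Mouse FAD_ABX_1151 has a description numbered like those of the SPF 5xFAD mice. Numbering follows 3 styles in all, which cannot be told apart from the groups in most comparisons, but GF 5xFAD against GF WT and ABX WT against SPF WT each lie within 1 style.

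Library totals ranged from 14441610 to 29977395 counts. Mitochondrial genes held 0.103 to 0.425 percent of them. The 8 microglia markers summed to at least 45235 CPM (counts scaled to a common library total) in every library, and from 45235 to 55906 CPM in 5xFAD against 57785 to 64590 CPM in WT mice. Of the markers of other cells, the 6 neutrophil genes summed to 61.1 to 263 CPM in the SPF 5xFAD mice and 144 CPM in mouse FAD_ABX_1151, and to at most 0.294 CPM in the other libraries. The 6 genes of border-associated macrophages summed to 27.3 to 185.5 CPM in ABX 5xFAD mice and 3.40 to 54.7 CPM in the other groups, where Cd163 and Lyve1 stood at 0 in all SPF WT and ABX WT mice.

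On the mouse genome GRCm38 with the GENCODE M21 annotation, P2rx7 (chr5:122643911-122691432, plus strand) and P2rx4 (chr5:122707544-122729738, plus strand) are neighbours in the same orientation, with 16111 bases between them. P2ry6 lies at chr7:100937630-100974649 on the minus strand, Adora3 at chr3:105870858-105908926 on the plus strand and Entpd1 at chr19:40612366-40741602 on the plus strand. All are protein-coding genes, and the counts refer to all exons of a gene together, untranslated exons included. Adora3 shares 779 exonic bases, 20.89 percent of its exonic length, with Tmigd3 on the same strand, so reads from there cannot be given to either gene. Tmigd3 itself held 11 to 97 counts per library, 0.908 to 6.39 percent of those of Adora3. P2rx7 shares 119 bases with the microRNA gene Mir8115.

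The promoters of the receptors whose transcripts differed between groups are given here so that the neighbours P2rx4 and P2rx7, which moved in opposite directions in GF 5xFAD mice, can be set side by side. Each runs from 250 bases before to 50 bases after the first RefSeq start of the gene on GRCm38.p6, 5' to 3' on the plus strand. RefSeq entries were at hand for 4 of the 5 members, without P2ry6. Capitals mark GAGGAA, the core of sites for PU.1, a transcription factor that microglia need, or its reverse complement TTCCTC.
P2rx4 (chr5:122707294-122707593): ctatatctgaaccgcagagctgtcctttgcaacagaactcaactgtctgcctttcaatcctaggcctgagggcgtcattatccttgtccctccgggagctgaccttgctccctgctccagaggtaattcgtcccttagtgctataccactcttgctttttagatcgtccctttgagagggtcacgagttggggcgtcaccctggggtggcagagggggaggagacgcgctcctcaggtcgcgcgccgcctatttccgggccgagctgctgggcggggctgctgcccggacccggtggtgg
P2rx7 (chr5:122643677-122643976): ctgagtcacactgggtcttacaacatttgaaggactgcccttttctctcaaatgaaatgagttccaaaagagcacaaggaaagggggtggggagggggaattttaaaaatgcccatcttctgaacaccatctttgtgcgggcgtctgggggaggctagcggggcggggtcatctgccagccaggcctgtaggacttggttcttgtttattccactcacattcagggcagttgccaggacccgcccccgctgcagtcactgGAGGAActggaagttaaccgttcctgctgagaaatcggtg
Adora3 (chr3:105904171-105904470): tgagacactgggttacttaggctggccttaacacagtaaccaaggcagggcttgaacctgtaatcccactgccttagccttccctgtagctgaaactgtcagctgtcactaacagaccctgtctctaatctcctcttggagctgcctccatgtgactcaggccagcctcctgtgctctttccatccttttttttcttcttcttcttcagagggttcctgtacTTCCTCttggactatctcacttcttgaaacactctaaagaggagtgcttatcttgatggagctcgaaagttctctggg
The P2rx4 promoter holds no GAGGAA on either strand. The P2rx7 promoter holds 1, at position 10 after the start. The window at the second RefSeq start of P2rx7 (chr5:122650133-122650432) also holds 1, on the other strand, at position 5 after the start, and the Adora3 promoter holds 1 on the other strand, 28 bases before the start. Of 32851 RefSeq promoters of this length, 28.28 percent hold this motif on either strand. The E-box CACGTG, found in 7.15 percent, is in none of the 3. Of the pair of RefSeq starts of Entpd1, the first (chr19:40612116-40612415) holds neither motif and the second (chr19:40659520-40659819) holds 2 copies of GAGGAA. A match to so short a motif is a description of the sequence and no evidence of binding.

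Levels of different genes were compared as RPKM, counts scaled to the library size and to the deposited exon length of the gene. Entpd1 had the highest level of the members, with 149 ± 17.5 RPKM (SD, n = 28), followed by P2ry6 with 121.6 ± 16.2 RPKM. P2rx7 stood at 42.4 ± 5.86, P2rx4 at 23.7 ± 5.43 and Adora3 at 20.2 ± 4.29 RPKM. Over the 2950 exonic bases that Adora3 does not share with Tmigd3, its level would be 25.6 ± 5.42 RPKM, so the order of P2rx4 and Adora3 depends on the length used. P2ry12 reached 3139 ± 798 RPKM. P2ry6 was above P2rx7 in all 28 libraries, whereas the ranges of Entpd1 and P2ry6 overlapped and Entpd1 was the higher in 23 of 28. Adora3 was above P2rx4 in 13 of 14 WT libraries and in 0 of 14 5xFAD libraries, and in 14 and 2 of them with the bases it does not share, a length chosen after the data were seen. By level, the members lay between the 83.7th and the 98.5th percentile of the genes tested, and their raw counts ran from 774 in 1 library for Adora3 to 28030 for Entpd1. At these counts the spread between mice, not counting error, set the precision. The median coefficient of variation within groups was 6.72 percent for P2rx7, 6.83 for P2rx4, 9.49 for Entpd1, 10.7 for Adora3 and 11.1 for P2ry6. Over all genes tested, most of which had lower levels than the members, it was 19.8 percent. Genes of like level were not compared.

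**Figure D1:**
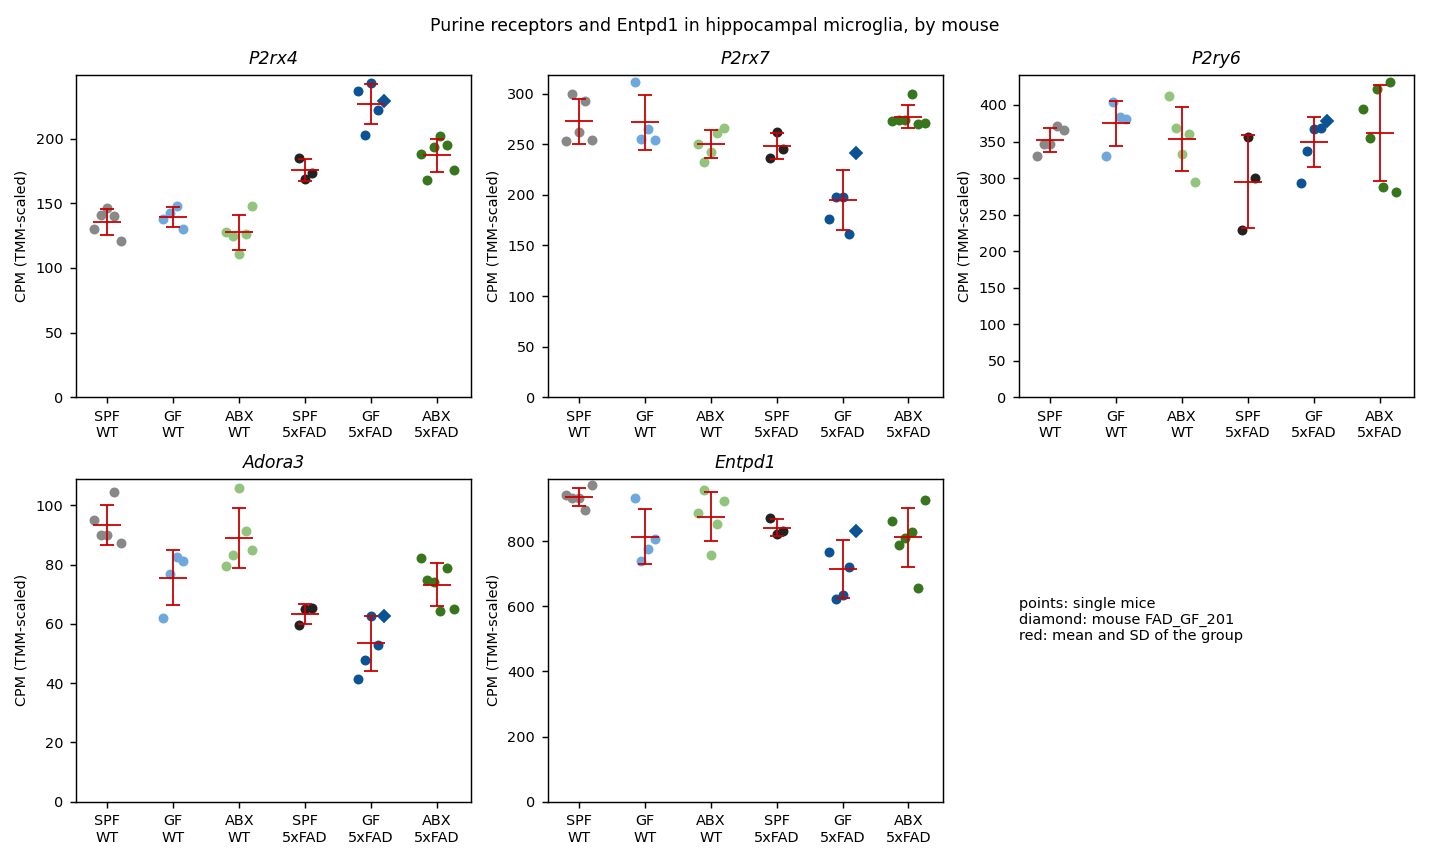
TMM-scaled CPM (vertical axes, from 0) of the 5 genes in the 6 groups. Each point is 1 mouse, the diamond is mouse FAD_GF_201, and the red lines give the mean and SD of a group. P2rx4 was above every WT value in all 14 5xFAD mice, and P2rx7 was lowest in 4 of the GF 5xFAD mice.

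P2rx4 encodes an ATP-gated channel that opens at low ATP concentrations and that microglia induce after nerve injury. The 5 SPF WT mice had 121, 129.9, 140.3, 141 and 146 CPM, and the 3 SPF 5xFAD mice 168, 173 and 185.2 CPM. All SPF 5xFAD mice thus lay above all SPF WT mice. The 4 GF WT mice had 130.2, 138, 143 and 148 CPM, and the 5 GF 5xFAD mice 203, 222, 228.8, 237 and 243 CPM. This was the widest gap of the 3 housing conditions, and mouse FAD_GF_201, at 228.8 CPM, sat inside the range of the other 4. The 5 ABX WT mice had 111, 125, 126, 128 and 148 CPM. The 6 ABX 5xFAD mice ran from 168 to 202 CPM with a median of 191 CPM, again without overlap.

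In edgeR's quasi-likelihood test, with p-values adjusted over all genes tested, P2rx4 was 1.29-fold higher in SPF 5xFAD than in SPF WT mice (log2 fold change 0.37, SE 0.0892, adjusted p = 0.00956). In GF mice it was 1.62-fold higher (0.70, SE 0.0838, adjusted p = 3.84e-07), and without mouse FAD_GF_201 the log2 fold change was 0.71 (adjusted p = 8.12e-07). In ABX mice it was 1.47-fold higher (0.55, SE 0.0754, adjusted p = 4.19e-06). In such bulk samples, a change in the share of cells that express a gene and a change in RNA per cell cannot be told apart. The SPF result was lost without mouse FAD_SPF_1144 (adjusted p = 0.0735), the SPF 5xFAD mouse with the highest P2rx4 level. That library also had the highest mitochondrial share of all 28, at 0.425 percent, and the highest sum of neutrophil markers, at 263 CPM. The GF and ABX results kept their call under every alternative run.

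Markers of other cells moved with several of these comparisons. In SPF mice, the neutrophil genes were higher in all 5xFAD than in all WT mice, as were the border-associated macrophage genes (13.7 to 22.8 against 3.40 to 8.15 CPM) and the 3 monocyte genes (8.76 to 9.31 against 6.09 to 8.42 CPM), and the 4 endothelial genes were lower (23.9 to 29.7 against 30.9 to 44.0 CPM). In GF mice, the 4 astrocyte genes summed to 154.8 to 189.1 CPM in 5xFAD against 228.3 to 298.4 CPM in WT mice, and the endothelial genes to 9.42 to 21.4 against 28.6 to 35.5 CPM. Slc1a3 made up most of the astrocyte sum, while Gfap and Aqp4 had at most 5.27 and 2.56 CPM in any library. Pecam1 carried most of the endothelial sum in SPF and GF mice alike. Its median over the 28 libraries was 26.6 CPM, against 0.638 CPM for Flt1, 0.380 for Cdh5 and 0 for Cldn5. Neutrophil genes stood at no more than 0.0907 CPM in GF mice of either genotype. Mitochondrial genes held 0.168 to 0.290 percent of the counts in GF 5xFAD against 0.111 to 0.147 percent in GF WT mice, without overlap. In SPF mice these shares were 0.283 to 0.425 percent in 5xFAD against 0.162 to 0.285 percent in WT mice. In ABX mice they were 0.103 to 0.318 against 0.179 to 0.347 percent, and both pairs overlapped. In ABX mice, the border-associated macrophage genes summed to 27.3 to 185.5 CPM in 5xFAD against 3.80 to 5.64 CPM in WT mice, and the monocyte genes to 10.3 to 51.9 against 2.08 to 9.05 CPM. Of the monocyte genes, Ccr2 had a median of 8.06 CPM over the 28 libraries, Plac8 0.734 and Ly6c2 0 CPM. Microglia markers summed to less in 5xFAD than in WT mice of all 3 conditions. The part of these markers and of the mitochondrial shares in the genotype results of P2rx4, P2rx7 and Adora3 was not tested.

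P2rx4 also differed between housing conditions within 5xFAD mice. The GF 5xFAD mice, at 227 ± 15.6 CPM (SD, n = 5), lay above the SPF 5xFAD mice, at 176 ± 8.63 CPM (n = 3), without overlap. The difference was 1.29-fold (log2 0.37, SE 0.0910, adjusted p = 0.00899), and 0.36 without mouse FAD_GF_201 (adjusted p = 0.0118). It was lost without mouse FAD_SPF_1146 (adjusted p = 0.0754), without mouse FAD_SPF_1148 (adjusted p = 0.0637) and without a filter on low counts (adjusted p = 0.0533). Neutrophil markers summed to 61.1 to 263 CPM in SPF 5xFAD against at most 0.0495 CPM in GF 5xFAD mice. Astrocyte genes were lower in GF 5xFAD mice, at 154.8 to 189.1 CPM against 222.7 to 239 CPM in SPF 5xFAD mice, and endothelial genes too, at 9.42 to 21.4 against 23.9 to 29.7 CPM. Mitochondrial genes held 0.168 to 0.290 percent of the counts in GF 5xFAD and 0.283 to 0.425 percent in SPF 5xFAD mice. The part of these markers and shares in the differences between these groups was not tested. The ABX 5xFAD mice, at 187 ± 12.7 CPM (n = 6), all lay below the GF 5xFAD mice, though not when scaled to library totals, with a log2 fold change of -0.28 (0.826-fold, adjusted p = 0.0170), and of -0.27 without mouse FAD_GF_201 (adjusted p = 0.0225).

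That result was lost with library size alone (adjusted p = 0.0666), without the filter (adjusted p = 0.101), with only these groups in the fit (adjusted p = 0.123) and without mouse FAD_GF_184 (adjusted p = 0.0516). ABX and SPF 5xFAD mice overlapped in P2rx4 (log2 fold change 0.09, 95% confidence interval -0.09 to 0.27, adjusted p = 0.863). Among WT mice no housing comparison of P2rx4 passed, and the group means were 127.5 CPM in ABX, 135.7 CPM in SPF and 139.6 CPM in GF mice. Whether the 5xFAD difference itself depended on housing was tested as an interaction. It was larger by 0.33 in GF than in SPF mice on the log2 scale (95% confidence interval 0.08 to 0.58, adjusted p = 0.463), and none of the 3 interactions of P2rx4 passed.

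P2rx7 encodes the ATP-gated channel that needs high ATP concentrations and is known as a trigger of the inflammasome. The 5 SPF WT mice had 254, 255, 262, 292 and 299 CPM, and the 3 SPF 5xFAD mice 236, 245 and 262 CPM. These groups overlapped. The 4 GF WT mice had 254, 256, 265 and 311 CPM, and the 5 GF 5xFAD mice 162, 176, 198, 198 and 241 CPM. All GF 5xFAD mice lay below all GF WT mice, and mouse FAD_GF_201, at 241 CPM, was the highest of them. The 5 ABX WT mice had 232, 242, 250.5, 261 and 266 CPM. The 6 ABX 5xFAD mice ran from 269.8 to 299.5 CPM with a median of 274 CPM, all of them above the ABX WT mice on this scale. Scaled to library totals alone, the groups overlapped, with up to 273.2 CPM in ABX WT and from 266.6 CPM in ABX 5xFAD mice.

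P2rx7 fell in GF 5xFAD against GF WT mice to 0.718-fold (log2 fold change -0.48, SE 0.0896, adjusted p = 0.000301). Without mouse FAD_GF_201 the log2 fold change was -0.55 (adjusted p = 1.19e-05), and the call held under every alternative run. In SPF mice the log2 fold change was -0.14 (95% confidence interval -0.34 to 0.07, adjusted p = 0.643). In ABX mice it was 0.15 (95% confidence interval -0.02 to 0.31, adjusted p = 0.248), which missed the threshold. The 5xFAD difference was higher by 0.62 on the log2 scale in ABX than in GF mice (SE 0.121, adjusted p = 0.0104), and by 0.70 without mouse FAD_GF_201 (adjusted p = 0.00122). This was the only interaction of a member that passed, over the 3 interactions and 5 genes, and over all alternatives its adjusted p ran from 0.000106 to 0.0309. Between GF and SPF mice the interaction was -0.34 (95% confidence interval -0.61 to -0.07, adjusted p = 0.478), and between ABX and SPF mice 0.28 (95% confidence interval 0.02 to 0.54, adjusted p = 0.726).

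Within 5xFAD mice, P2rx7 was lower in GF than in SPF mice, with 195.0 ± 29.9 CPM (SD, n = 5) against 248 ± 13.1 CPM (n = 3) and a fold of 0.786 (log2 -0.35, SE 0.0971, adjusted p = 0.0188). The groups overlapped through mouse FAD_GF_201, though not by library totals, and without it the log2 fold change was -0.44 (adjusted p = 0.00196). The call was lost without mouse FAD_SPF_1146 (adjusted p = 0.0891) or FAD_SPF_1148 (adjusted p = 0.0620), with only these groups in the fit (adjusted p = 0.0762) and with gene length offsets (adjusted p = 0.0860). ABX 5xFAD mice, at 277 ± 11.1 CPM (n = 6), lay above GF 5xFAD mice by 1.42-fold without overlap (log2 0.51, SE 0.0818, adjusted p = 0.000439), a result that held under every alternative run and reached 0.59 without mouse FAD_GF_201 (adjusted p = 1.61e-05). They also lay above all SPF 5xFAD mice, with a log2 fold change of 0.16 that did not pass (adjusted p = 0.752). The border-associated macrophage genes were at a median of 122.5 CPM in ABX 5xFAD mice against 16.8 in GF and 19.4 CPM in SPF 5xFAD mice, and the astrocyte genes, at 212.4 to 299 CPM, lay above those of GF 5xFAD mice without overlap. Their part in the ABX results of P2rx4, P2rx7 and Adora3 was not tested. No housing comparison of P2rx7 passed in WT mice, where the log2 fold changes lay between -0.12 and -0.01.

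Since both channels were counted in the same libraries, their ratio does not depend on how libraries are scaled. P2rx7 had 1.79 to 2.26 counts per P2rx4 count in the 14 WT mice. In SPF 5xFAD mice the ratio was 1.28, 1.42 and 1.56, and in ABX 5xFAD mice it ran from 1.38 to 1.63 with a median of 1.47. In GF 5xFAD mice it ran from 0.728 to 1.05 with a median of 0.815. The 14 WT mice all lay above the SPF and ABX 5xFAD mice, which overlapped each other, and the GF 5xFAD mice lay below all of them. The correlation of P2rx4 and P2rx7 in log2 CPM over the 28 libraries was -0.47 (Pearson) and -0.17 (Spearman), over points that share the 6 groups, and 0.22 once group means were removed.

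**Figure D2:**
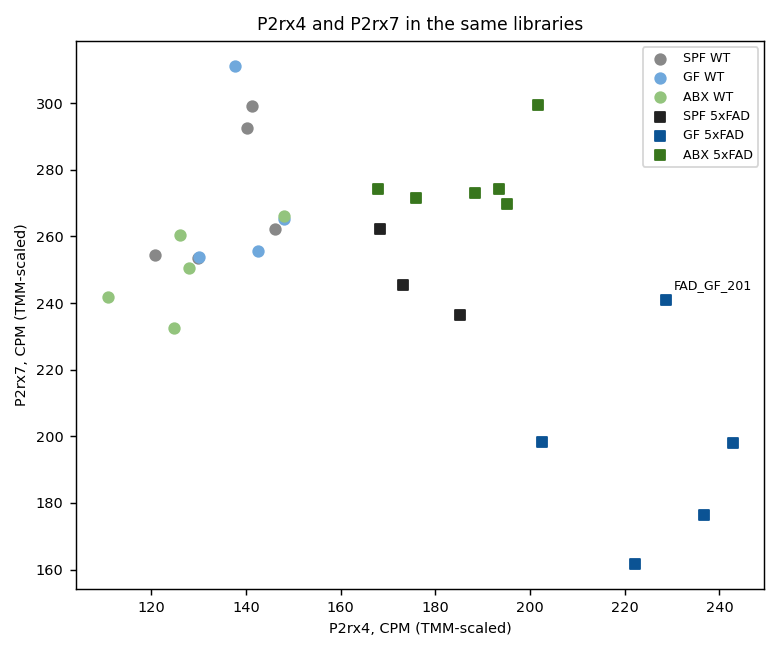
P2rx4 (horizontal axis) against P2rx7 (vertical axis) in TMM-scaled CPM, 1 point per mouse, with circles for WT and squares for 5xFAD mice and colours for the housing conditions. The axes do not start at 0. GF 5xFAD mice lie at the lower right, with mouse FAD_GF_201 above the other 4, and ABX 5xFAD mice share the P2rx7 range of WT mice at higher P2rx4.

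P2ry6 encodes the receptor for UDP, which microglia use to start phagocytosis of injured neurons. The 5 SPF WT mice had 329.9, 346, 347, 366 and 371 CPM, and the 3 SPF 5xFAD mice 228.9, 300.4 and 357 CPM. The 4 GF WT mice had 330.5, 381, 383 and 405 CPM, and the 5 GF 5xFAD mice 294, 338, 366, 369 and 377 CPM. The 5 ABX WT mice had 294, 332, 359.6, 368 and 413 CPM, and the 6 ABX 5xFAD mice ran from 280.4 to 432 CPM with a median of 375 CPM. All groups overlapped. The widest spread within a group, 21.7 percent, was that of the SPF 5xFAD mice. Against WT mice of the same housing, the log2 fold change was -0.25 in SPF (95% confidence interval -0.53 to 0.03, adjusted p = 0.437), -0.10 in GF (-0.36 to 0.15, adjusted p = 0.647) and 0.03 in ABX mice (-0.20 to 0.27, adjusted p = 0.884). The SPF value was -0.40 without mouse FAD_SPF_1146 and -0.09 without mouse FAD_SPF_1144. Within 5xFAD mice, the log2 fold change of P2ry6 was 0.29 for ABX against SPF (95% confidence interval 0.02 to 0.57, adjusted p = 0.666), 0.24 for GF against SPF (-0.04 to 0.52, adjusted p = 0.273) and 0.05 for ABX against GF (-0.18 to 0.28, adjusted p = 0.822). Without mouse FAD_SPF_1144 the comparisons with SPF mice gave 0.14 and 0.08, and without mouse FAD_SPF_1146 they gave 0.44 and 0.38. Among WT mice the housing differences lay between -0.08 and 0.09.

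Adora3 encodes an adenosine receptor that is coupled to inhibitory G proteins. The 5 SPF WT mice had 87.4, 89.9, 90.0, 94.96 and 105 CPM, and the 3 SPF 5xFAD mice 59.5, 64.9 and 65.5 CPM. All SPF 5xFAD mice lay below all SPF WT mice. The 4 GF WT mice had 62.0, 76.7, 81.2 and 82.5 CPM, and the 5 GF 5xFAD mice 41.3, 47.7, 52.8, 62.5 and 62.8 CPM. These groups overlapped, since 1 GF WT mouse lay at 62.0 CPM. The 5 ABX WT mice had 79.7, 83.3, 84.9, 91.3 and 106 CPM. The 6 ABX 5xFAD mice ran from 64.4 to 82.3 CPM with a median of 74.4 CPM, and 5 of them lay below all ABX WT mice. By library totals neither the GF nor the ABX groups overlapped between genotypes.

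Adora3 was 0.678-fold of its WT level in SPF 5xFAD mice (log2 fold change -0.56, SE 0.129, adjusted p = 0.00657), a call that was lost without mouse FAD_SPF_1144 (adjusted p = 0.0681). In GF mice Adora3 was 0.707-fold (-0.50, SE 0.116, adjusted p = 0.00288), and -0.55 without mouse FAD_GF_201 (adjusted p = 0.00142). In ABX mice the log2 fold change was -0.28 (95% confidence interval -0.49 to -0.07) and did not pass (adjusted p = 0.0727), though it did with library size alone (adjusted p = 0.0236) and with gene length offsets (adjusted p = 0.0426). No interaction of Adora3 passed (adjusted p from 0.537 to 0.957). Within 5xFAD mice, all 6 ABX mice lay above all 5 GF mice, by 1.37-fold (log2 0.45, SE 0.106, adjusted p = 0.00729), and by 0.52 without mouse FAD_GF_201 (adjusted p = 0.00288). This was lost with only these groups in the fit (adjusted p = 0.0644), and the astrocyte and border-associated macrophage genes were higher in the ABX mice here too. Among WT mice the GF values all lay below the SPF values (75.6 ± 9.40 CPM, n = 4, against 93.3 ± 6.84 CPM, n = 5), a log2 fold change of -0.30 that did not pass (adjusted p = 0.168) and that passed with limma's voomWithQualityWeights (adjusted p = 0.0474).

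Entpd1 encodes CD39, the enzyme of the cell surface that turns ATP and ADP into AMP. The 5 SPF WT mice had 896, 931, 931, 943 and 974 CPM, and the 3 SPF 5xFAD mice 822, 832 and 871 CPM. All SPF 5xFAD mice lay below all SPF WT mice, but the log2 fold change of -0.15 did not pass (95% confidence interval -0.36 to 0.05, adjusted p = 0.584). The 4 GF WT mice had 738, 777, 808 and 932.002 CPM, and the 5 GF 5xFAD mice 622, 634, 719, 766 and 831 CPM. The 5 ABX WT mice had 758, 854, 886, 924 and 956 CPM, and the 6 ABX 5xFAD mice ran from 656 to 927 CPM with a median of 819 CPM. These pairs of groups overlapped. The log2 fold change was -0.19 in GF (95% confidence interval -0.37 to -0.00187, adjusted p = 0.174; without mouse FAD_GF_201, -0.24 and adjusted p = 0.0693; with library size alone, -0.31 and adjusted p = 0.0155) and -0.11 in ABX mice (-0.28 to 0.06, adjusted p = 0.422).

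In both genotypes, GF mice had the lowest mean Entpd1 level of the 3 housing conditions, 814 ± 83.9 CPM in WT (SD, n = 4) and 714 ± 88.4 CPM in 5xFAD mice (n = 5). Neither housing comparison with SPF mice passed, with a log2 fold change of -0.20 in WT (adjusted p = 0.260) and -0.24 in 5xFAD mice (adjusted p = 0.113). The 5xFAD comparison passed without mouse FAD_GF_201 (-0.30, adjusted p = 0.0369), with voomWithQualityWeights (adjusted p = 0.0204) and with library size alone (adjusted p = 0.0265). The WT comparison passed with voomWithQualityWeights (adjusted p = 0.0214). ABX against GF 5xFAD mice gave 0.18 (adjusted p = 0.152), which passed without mouse FAD_GF_201 (adjusted p = 0.0494), without mouse FAD_ABX_1482 (adjusted p = 0.0338) and with library size alone (adjusted p = 0.0356).

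**Figure D3:**
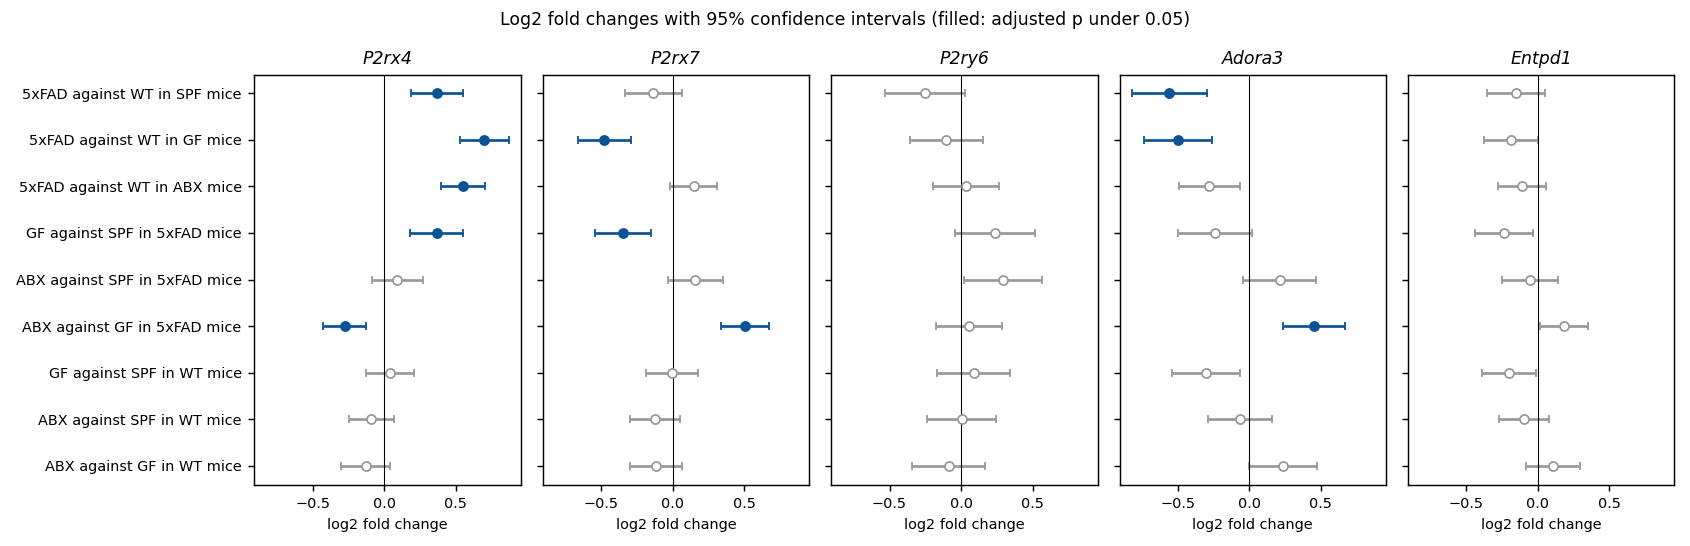
Log2 fold changes (horizontal axes) with 95% confidence intervals of the 5 genes in 9 comparisons (rows), from edgeR. Filled blue points have an adjusted p under 0.05 and open grey points do not. P2rx4 lies to the right of 0 in the upper 3 rows, Adora3 to the left in the same rows, and P2rx7 to the left for GF and to the right for ABX mice.

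Counted together, 2 of the 5 members passed for 5xFAD against WT in SPF mice, where 4.57 percent of all genes tested did, and the count fell to 0 without mouse FAD_SPF_1144. In GF mice 3 of 5 passed (15.6 percent of all genes), and in ABX mice 1 of 5 (14.4 percent). Their median log2 fold change was -0.15, -0.19 and 0.03 in SPF, GF and ABX mice, against -0.03, -0.03 and -0.01 over all genes tested. Within 5xFAD mice, 2 of 5 passed for GF against SPF (12.8 percent) and 3 of 5 for ABX against GF (10.6 percent). The first of these counts fell to 0 without mouse FAD_SPF_1146 or FAD_SPF_1148, and the second to 1 with only the groups compared in the fit. For ABX against SPF 5xFAD mice 0 members passed in edgeR, as did 0 percent of all genes, and 1 member had an unadjusted p under 0.05. DESeq2 and voomWithQualityWeights also called 0 members there, and 0.0523 and 0.876 percent of all genes.

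Among WT mice, edgeR called 0 of 5 members for GF against SPF (1.62 percent of all genes), ABX against SPF (0 percent) and ABX against GF (6.88 percent), with 2, 0 and 0 members at an unadjusted p under 0.05. DESeq2 called 0 members in each of these, where it called 4.71, 0.0131 and 10.6 percent of all genes. Limma's voomWithQualityWeights called 2 members for GF against SPF, where it called 10.7 percent of all genes. It called 0 for the others (0 and 13.2 percent). Of the interactions, edgeR called 0 of 5 members for GF against SPF (0 percent) and for ABX against SPF (0 percent), with 2 and 1 members at an unadjusted p under 0.05. DESeq2 and voomWithQualityWeights called 0 members in both. Over all genes, they called 0.163 and 0.758 percent for GF against SPF and 0.00654 and 0.0915 percent for ABX against SPF. For ABX against GF 1 of 5 was called (1.76 percent). The genotype comparisons have no mice in common, whereas the housing comparisons within a genotype share groups.

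Of 31 other genes of the same pathway, 19 passed the filter on low counts. In 5xFAD against WT mice, 1 of the 19 was higher and 3 were lower in SPF, 2 and 5 in GF, and 2 and 4 in ABX mice, where 4.57, 15.6 and 14.4 percent of all genes tested passed in either direction. Their median log2 fold change was -0.15, -0.17 and 0.17, against -0.03, -0.03 and -0.01 over all genes tested. Among the receptors for ADP, P2ry12 was lower in 5xFAD mice, with a log2 fold change of -0.44 in SPF (adjusted p = 0.0255), -0.62 in GF (adjusted p = 0.000109) and -0.59 in ABX mice (adjusted p = 6.16e-05, and -0.33 with GC offsets, adjusted p = 0.00533). P2ry13, which also binds ADP, was lower too, with log2 fold changes of -0.48 (adjusted p = 0.0245), -0.64 (adjusted p = 0.000207) and -0.51 (adjusted p = 0.00113). Both SPF calls were lost without mouse FAD_SPF_1144, FAD_SPF_1146 or FAD_SPF_1148, with adjusted p up to 0.161 for P2ry12 and 0.133 for P2ry13, and also without mouse WT_SPF_912 or WT_SPF_925.

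Of the other adenosine receptors only Adora1 passed the filter. Adora1 had 3.45 ± 1.04 CPM in SPF WT (SD, n = 5), 1.59 ± 0.573 in GF WT (n = 4) and 2.55 ± 0.848 CPM in ABX WT mice (n = 5). In 5xFAD mice it had 12.8 ± 3.11 CPM in SPF (n = 3), 26.0 ± 7.82 in GF (n = 5) and 12.3 ± 2.00 CPM in ABX mice (n = 6). It was higher in 5xFAD mice of each condition, by log2 fold changes of 1.89 in SPF (adjusted p = 3.19e-05), 4.05 in GF (adjusted p = 7.57e-11) and 2.26 in ABX mice (adjusted p = 1.99e-07). The 5xFAD difference of Adora1 departed between ABX and GF mice by -1.79 (adjusted p = 0.0157, and 0.0900 with voomWithQualityWeights). On the scale of RPKM, Adora1 averaged 1.72 against 20.2 for Adora3.

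Of the enzymes and transporters around adenosine, Pnp, which cleaves inosine and guanosine, was lower in 5xFAD mice of all 3 conditions, with log2 fold changes of -0.45 in SPF (adjusted p = 0.0105), -0.43 in GF (adjusted p = 0.00222) and -0.48 in ABX mice (adjusted p = 0.000331). The SPF call was lost without mouse FAD_SPF_1146 (adjusted p = 0.135). Enpp1, a surface enzyme that cleaves ATP, was higher in GF (0.95, adjusted p = 0.00222) and ABX 5xFAD mice (1.06, adjusted p = 0.000281). In SPF mice its value of 0.67 did not pass (adjusted p = 0.0973). Slc29a3, a nucleoside transporter of intracellular membranes, was lower in GF 5xFAD mice (-0.61, adjusted p = 0.000435), and its 5xFAD difference was higher by 0.91 in ABX than in GF mice (adjusted p = 0.00685). The channel gene P2rx1 was lower in GF 5xFAD mice (-1.20, adjusted p = 0.000518). Its values of -0.69 in SPF (adjusted p = 0.163) and -0.49 in ABX mice (adjusted p = 0.129) did not pass. Lrrc8a, a subunit of volume-regulated anion channels, was lower in ABX 5xFAD mice (-0.92, adjusted p = 0.00192). It did not pass in SPF (-0.61, adjusted p = 0.211) or GF mice (0.11, adjusted p = 0.799). No interaction of Enpp1, P2rx1 or Lrrc8a passed. Without mouse FAD_GF_201, each of these calls in GF mice kept its direction and passed. Nt5e, which turns AMP into adenosine, had at most 1.10 CPM in any library, and Entpd2, Entpd3 and Entpd8, relatives of Entpd1, did not pass the filter.

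The same 19 genes were compared between housing conditions. In 5xFAD mice, 3 passed for GF against SPF (12.8 percent of all genes), 4 for ABX against GF (10.6 percent) and 0 for ABX against SPF (0 percent). P2ry13 was lower in GF than in SPF 5xFAD mice (-0.57, adjusted p = 0.00466), P2ry12 was lower (-0.41, adjusted p = 0.0194) and Adora1 was higher (1.02, adjusted p = 0.0200). With GC offsets the P2ry12 value shrank to -0.07 (adjusted p = 0.712), and its call was also lost, at -0.38 and -0.43, without mouse FAD_SPF_1144 or FAD_SPF_1148. The Adora1 call was lost without mouse FAD_GF_182, FAD_SPF_1146 or FAD_SPF_1148. From GF to ABX 5xFAD mice, P2ry13 (0.53, adjusted p = 0.00263), P2ry12 (0.43, adjusted p = 0.00624) and Slc29a3 (0.38, adjusted p = 0.0225) were higher and Adora1 was lower (-1.08, adjusted p = 0.00423). With GC offsets the P2ry12 value fell to 0.22 (adjusted p = 0.0830). With only the groups compared, P2ry12 stayed at 0.47 and Slc29a3 at 0.41, but both calls were lost, and that of Slc29a3 also without mouse FAD_GF_181, FAD_GF_184, FAD_GF_185 or FAD_ABX_1452.

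In WT mice, 2 of the 19 passed for GF against SPF (1.62 percent of all genes), 5 for ABX against GF (6.88 percent) and 0 for ABX against SPF (0 percent). GF WT mice stood apart from the other WT mice in border-associated macrophage genes, at 10.5 to 35.4 CPM against 3.40 to 8.15 in SPF and 3.80 to 5.64 CPM in ABX mice. Their mitochondrial share, 0.111 to 0.147 percent, lay below those of SPF (0.162 to 0.285) and ABX mice (0.179 to 0.347 percent), and the part of either in these calls was not tested. Slc29a2, a nucleoside transporter of the cell surface, had 7.63 ± 2.17 CPM in GF WT (SD, n = 4), 2.80 ± 1.28 in SPF WT (n = 5) and 3.46 ± 0.584 CPM in ABX WT mice (n = 5). It was higher in GF than in SPF mice (1.44, adjusted p = 0.0362) and lower in ABX than in GF mice (-1.14, adjusted p = 0.0496), calls that were lost under 7 and 23 of 38 alternatives. Adora1 was lower in GF than in SPF mice (-1.14, adjusted p = 0.0428), which was lost under 11 alternatives. Between ABX and GF mice, Slc29a3 was lower in ABX (-0.53, adjusted p = 0.00800) and kept its call under all 38 alternatives. P2ry12 (0.41, adjusted p = 0.0222), P2ry13 (0.40, adjusted p = 0.0394) and Lrrc8a (0.83, adjusted p = 0.0254) were higher in ABX, and their calls were lost under 5, 8 and 5 alternatives. With GC offsets the P2ry12 value shrank to 0.06 (adjusted p = 0.819) and that of P2ry13 to 0.29 (adjusted p = 0.161). Each of these calls in WT mice but that of Slc29a3 was lost without mouse WT_GF_230, among other mice, with adjusted p from 0.0567 to 0.164.

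**Figure D4:**
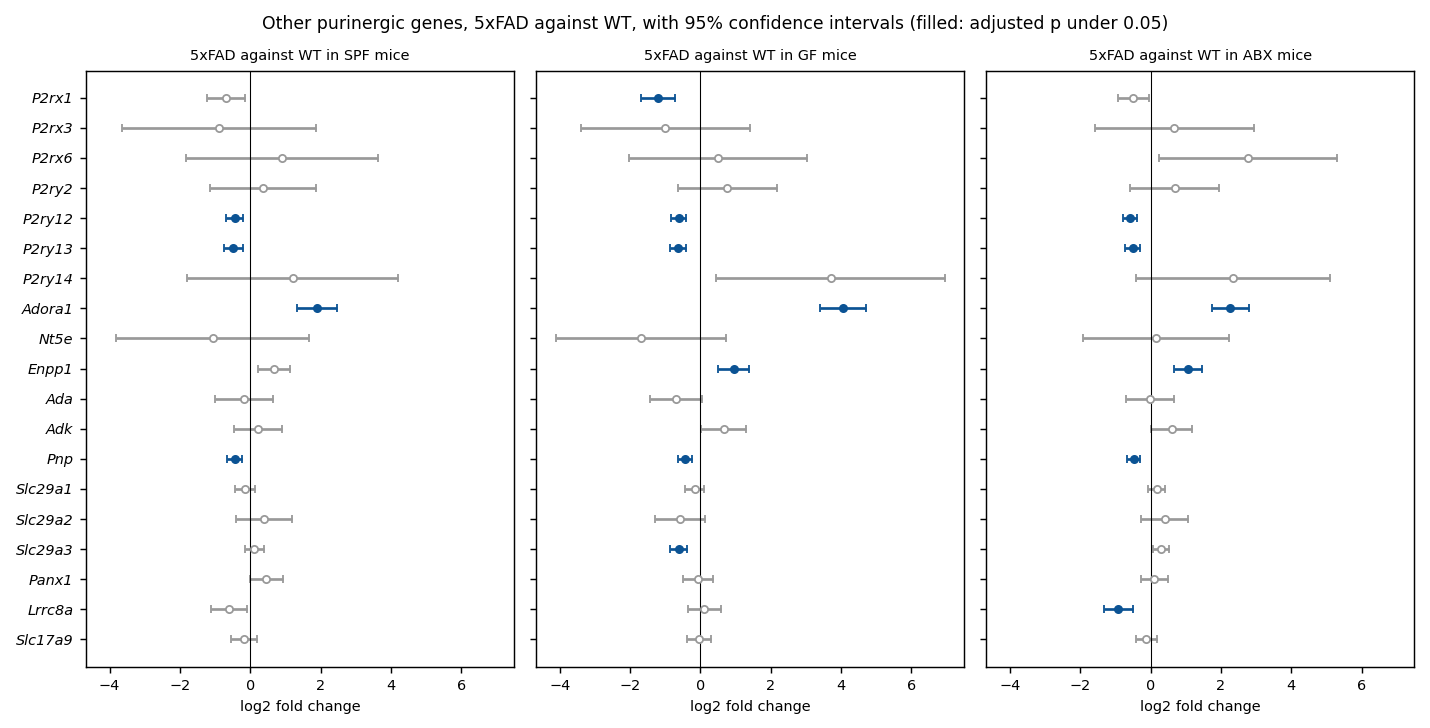
Log2 fold changes (horizontal axes) with 95% confidence intervals of the 19 other purinergic genes tested (rows) for 5xFAD against WT mice in SPF, GF and ABX housing (panels). Filled blue points have an adjusted p under 0.05. Adora1 lies farthest to the right of the filled points in each panel, and P2ry12, P2ry13 and Pnp lie to the left in all 3.

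The genes whose log2 CPM followed each member most closely over the 28 libraries were sought among 8930 genes with a mean of at least 3 log2 CPM. For P2rx4 these were Pld3 (r = 0.961), Ctsa (0.961) and Lamp1 (0.958). For P2rx7 they were Acp2 (0.845), Numb (0.828) and Zfp324 (0.812), and for P2ry6 Zbtb45 (0.845), Fscn1 (0.809) and Sf3a2 (0.784). For Adora3 they were Hist3h2a (0.890), Clec4a2 (0.887) and Tnfaip8 (0.879), and for Entpd1 Gcnt1 (0.900), Cep170 (0.879) and Pip4k2a (0.878). These libraries share their groups. With group means removed, the correlations were 0.560 to 0.627 for P2rx4, 0.605 to 0.691 for P2rx7 and 0.583 to 0.693 for Adora3. Those of P2ry6 lay at 0.785 to 0.833 and those of Entpd1 at 0.779 to 0.833. Among the members, the strongest relation over the 28 libraries was that of P2rx4 with Adora3 (r = -0.77, and -0.06 with group means removed). Once group means were removed, the strongest was that of P2ry6 with Adora3 (0.51), followed by Adora3 with Entpd1 (-0.43).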

How the data were processed

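The authors aligned single reads to GRCm38 with STAR 2.7.2 and counted them per gene with featureCounts 1.6.2, and the deposited values are raw counts without normalization, beside the exon length of each gene. The submitters' processing notes name a human build, which the deposited mouse coordinates contradict. The library kits do not mark strand, so overlapping genes cannot be separated by strand.

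The 92 spike-in entries were left out. Genes were kept by filterByExpr (minimum count 10, minimum total 15), scaled by TMM (factors 0.918 to 1.07) and tested in R 4.3.3 with edgeR 4.0.16 (quasi-likelihood test, 1 term per group, all 28 libraries), with Benjamini-Hochberg adjustment over 15298 genes and a threshold of 0.05. The procedure was tested on simulated data. SEs were taken from the fold change and its F statistic. Correlations used log2 CPM with a prior count of 2. Cell markers refer to library totals.

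Groups were taken from the titles of the libraries. No pair of mice in a group was closer than 6.92 chi-square units per degree of freedom, so none counted as a duplicate. Named genes are the 5 members, P2ry12, pathway genes past the threshold and the 3 genes nearest to each member. Nt5e, Entpd2, Entpd3 and Entpd8 lie outside this rule and were named after their values were seen. The members and lists were chosen with earlier results of these data known. Alternatives were RLE factors, library size alone, no filter or at least 10 counts in every library, DESeq2 1.42.0, voomWithQualityWeights of limma 3.58.1 (the study's own pipeline), a fit restricted to the groups compared, gene length and GC offsets (GC known for 96.7 percent of genes), leaving out mice FAD_ABX_1151 and FAD_ABX_1482, since the study states fewer ABX mice, and leaving out each mouse in turn. The length of Adora3 without bases shared with Tmigd3 was added after seeing the data. Promoter sequences are from RefSeq. Figures were drawn with matplotlib.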

Additional observations from a re-analysis of the deposited data

Results flagged for a closer look

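P2rx7 in mouse FAD_ABX_1460, at 299.5 CPM, stood apart from the other 5 ABX 5xFAD mice, which lay between 269.8 and 274 CPM. Scaled to library totals alone, it had 283.03 CPM against 266.6 to 277.01 CPM in the others, and the ratio of its gap to the range was 0.366, under the critical value. It was the only such value by Dixon's criterion among 25 sets (5 genes in 5 groups of 4 to 6 mice), and chance gives about 1 in 20.

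The difference between 5xFAD and WT mice departed between ABX and GF mice for P2rx7, by 0.62 on the log2 scale (edgeR, adjusted p = 0.0104). The same held for Adora1 (-1.79, adjusted p = 0.0157) and for Slc29a3 (0.91, adjusted p = 0.00685). The group values of P2rx7 and Adora1 are given above. Slc29a3 had 656 ± 89.6 CPM in GF WT (SD, n = 4), 455 ± 40.5 in ABX WT (n = 5), 429 ± 69.2 in GF 5xFAD (n = 5) and 559 ± 73.0 CPM in ABX 5xFAD mice (n = 6).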

How the results depend on the processing

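Of 2280 values of the 5 members under the alternatives, over 60 results, 2217 kept their direction and their side of the threshold, 14 lost the call, 11 gained it and 38 changed sign, none of the latter in a result that had passed. With library size alone, the median log2 fold change of all genes in GF 5xFAD against GF WT mice was -0.15 in place of -0.03, so changes there are read relative to it. The members called for 5xFAD against WT in GF mice were 4 in place of 3 with library size alone, and for ABX against GF 5xFAD mice 4 in place of 3 without mouse FAD_GF_201 or FAD_ABX_1482, 2 without FAD_GF_184 and 2 without a filter. For GF against SPF 5xFAD mice they were 3 in place of 2 with library size alone, voomWithQualityWeights and without mouse FAD_GF_201. The members called for 5xFAD against WT in ABX mice were 2 in place of 1 with library size alone and with gene length offsets. For GF against SPF 5xFAD mice they were 1 in place of 2 without a filter, with only the groups compared and with gene length offsets, and for ABX against GF 5xFAD mice 1 in place of 3 with only the groups compared. For GF against SPF WT mice they were 2 in place of 0 with voomWithQualityWeights. Leaving out single mice gave 0 to 2 members for 5xFAD against WT in SPF mice and 0 to 3 for GF against SPF 5xFAD mice. The cause was not tested.

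The sign changed in results near 0. P2ry6 in ABX 5xFAD against WT mice gave -0.04427 with library size alone, -0.01057 with voomWithQualityWeights and -0.115 with GC offsets (-0.02531 to 0.10 leaving out single mice). In GF against SPF WT mice P2rx7 gave 0.001215 with RLE factors, 0.001347 with DESeq2, 0.005972 with only the groups compared and 0.02775 with length offsets (-0.07767 to 0.03033 leaving out single mice). With GC offsets, P2ry6 gave -0.05421 in GF against SPF WT and 0.16 in ABX against GF WT mice, and Entpd1 gave 0.01354 in ABX against SPF 5xFAD, -0.0002078 in ABX against GF WT mice and 0.005499 in the interaction of GF and SPF. With length offsets Entpd1 gave 0.03589 in that interaction and -0.01765 in that of ABX and GF. Adora3 in the interaction of GF and SPF gave -0.0173 with library size alone and -0.02202 with voomWithQualityWeights. Leaving out single mice gave -0.10 to 0.002576 for Entpd1 in ABX against SPF 5xFAD, -0.002941 to 0.13 for P2ry6 in ABX against GF 5xFAD and -0.05071 to 0.06554 for P2ry6 in ABX against SPF WT mice. In the interaction of GF and SPF it gave -0.10 to 0.03537 for Entpd1, -0.02386 to 0.14 for Adora3 and -0.003021 to 0.28 for P2ry6, and for Entpd1 in that of ABX and SPF -0.01398 to 0.10. Without mice FAD_ABX_1151 and FAD_ABX_1482 no member changed its call or its sign. No paired analysis was possible because the labels number each mouse once and groups share no numbers.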
